A study of Homo sapiens with 4 samples.

Results

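Cholesterol and fatty acids are built from cytosolic acetyl-CoA by enzymes whose genes are switched on together by the sterol regulatory element-binding proteins. These transcription factors, encoded by SREBF1 and SREBF2, are held in the endoplasmic reticulum by INSIG proteins when sterols are plentiful. When sterols are scarce, SCAP escorts them to the Golgi, where the protease encoded by MBTPS1 makes the first of the cuts that release the active factor. In liver, the SREBF2 product mainly serves cholesterol synthesis and the SREBF1 product mainly serves fatty acid synthesis. A set of 36 named genes of these routes was taken by gene symbol, with no measured value in the rule itself, although the set was proposed with earlier results of these data known, and 35 of the 36 are symbols of the deposited tables, which hold 18398 rows. The members comprised 17 enzymes of cholesterol synthesis, 5 genes of the sterol-sensing machinery, 2 genes of sterol transport, and 11 enzymes of fatty acid synthesis and related steps. The name SC4MOL was found in no table, and its gene is listed there as MSMO1, whose values are given beside the members without being counted among them.

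RNA sequencing was performed on Huh1 and Huh7, a pair of established human hepatocellular carcinoma lines. The cells had received an siRNA against CDCA8, a subunit of the chromosomal passenger complex that acts in cell division, or the control NCsiRNA, which targets no transcript of the cell. The study's methods give 15 nM of siRNA with a cationic lipid and its legend gives 48 h. There was 1 library for each of the 4 combinations, so the spread between cultures was not measured, each line stands for 1 culture lineage, and all statements rest on 1 siRNA sequence. In Huh1, CDCA8 itself was at 24.1 RPKM with NCsiRNA and at 5.86 RPKM with CDCA8siRNA, and in Huh7 at 51.5 and 7.36 RPKM. RPKM is a read number divided by the length of the transcript and by the library's depth. The value of 1 read, as estimated from low values, corresponded to a depth of 12197606 to 13384836 reads per library. Of 8 hepatocyte markers, all were detected in every library, and 7 were lower with CDCA8siRNA in each line, though not the same 7. Their summed level was 5115 and 3956 RPKM in the Huh1 libraries and 3207 and 2268 RPKM in the Huh7 libraries, the NCsiRNA library being named first here and below. ALB, which encodes albumin, was at 3447 and 2684 RPKM in Huh1 and at 1166 and 721 RPKM in Huh7. The exception in Huh1 was AFP, at 24.8 and 27.5 RPKM there and at 865 and 715 RPKM in Huh7. In Huh7 it was TTR, at 29.3 and 48.5 RPKM there and at 5.10 and 4.49 RPKM in Huh1. Of the 8 markers, 6 passed the test described below as lower, where 4.21% of genes did. Among 7 markers of leukocytes, endothelium and fibroblasts, VWF, DCN and PTPRC were at 0 to 0.417 RPKM, whereas COL1A1 was at 0.115 and 0.122 RPKM in Huh1 against 107 and 125 RPKM in Huh7. CD68, a macrophage marker, was at 23.3 and 16.5 RPKM in Huh1 and at 3.71 and 3.73 RPKM in Huh7. The summed level of these 7 was 35.4 and 42.3 RPKM in Huh1 and 255 and 321 RPKM in Huh7. Only 2 of them entered the fit, and 1, LUM, passed the same test as higher with CDCA8siRNA, where 6.03% of genes did. The part of these markers in the results for the lipid genes was not tested.

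The sequences before the transcription starts of 4 members are shown for the reasons that follow, and their link to the siRNA differences was not tested. SREBF2 was the only searched member with a sterol regulatory element, HMGCS1 had the largest difference in Huh1, FADS1 had the largest in Huh7, and AACS was the only member that passed the test over both lines. The sequences are RefSeq sequences on GRCh38.p14, 5′ to 3′ on the strand of the gene, and hold only bases outside annotated exons, except that of SREBF2, which is a site of 30 bases. Capitals mark the sterol regulatory element TCACNCCAC, the CCAAT box and the GC box GGGCGG, each on either strand, so that ATTGG and CCGCCC are the reverse forms of the latter boxes. The SREBF2 stretch lies at chr22:41832962-41832991 on the plus strand, the HMGCS1 stretch at chr5:43313513-43313662 on the minus strand, the FADS1 stretch at chr11:61817163-61817253 on the minus strand and the AACS stretch at chr12:125065185-125065378 on the plus strand. HMGCS1 has another annotated start, whose stretch at chr5:43313182-43313355 is not shown and holds 2 GC boxes and 0 CCAAT boxes.
SREBF2: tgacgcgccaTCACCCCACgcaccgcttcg
HMGCS1: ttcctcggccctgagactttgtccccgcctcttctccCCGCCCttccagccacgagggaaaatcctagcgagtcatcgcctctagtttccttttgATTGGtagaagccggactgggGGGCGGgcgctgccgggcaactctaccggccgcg
FADS1: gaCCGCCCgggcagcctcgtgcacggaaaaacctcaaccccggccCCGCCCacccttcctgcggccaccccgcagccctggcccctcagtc
AACS: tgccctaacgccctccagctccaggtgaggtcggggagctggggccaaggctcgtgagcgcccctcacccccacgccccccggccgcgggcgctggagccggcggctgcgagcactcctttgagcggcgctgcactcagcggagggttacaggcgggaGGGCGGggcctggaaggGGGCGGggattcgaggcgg

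A RefSeq promoter entry was found for 31 of the 35 members, and the 250 bases before each annotated start were searched on both strands, overlapping matches included. The members without an entry were ACAT2, FDFT1, SQLE and FASN. The CCAAT box, which binds the factor NF-Y, was present in 21 of 31 members (67.7%), against 42.5% of 7731 genes that entered the fit and had an entry, and 37.0% of all 27305 genes with an entry. It was found in 12 of 14 searched cholesterol synthesis enzymes and in 5 of 10 searched fatty acid enzymes. The GC box, which binds Sp1-type factors, was present in 27 of 31 members (87.1%), against 75.6% of the fitted genes. The E-box CACGTG was present in SC5DL, INSIG1, SCAP and ELOVL5 (12.9%), against 11.5% of the fitted genes, and the sterol regulatory element in 1 member (3.2%), against 1.3%. A match gives only the letters in the window, and many sterol-responsive promoters use variants of the element that this search does not cover.

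**Figure D1:**
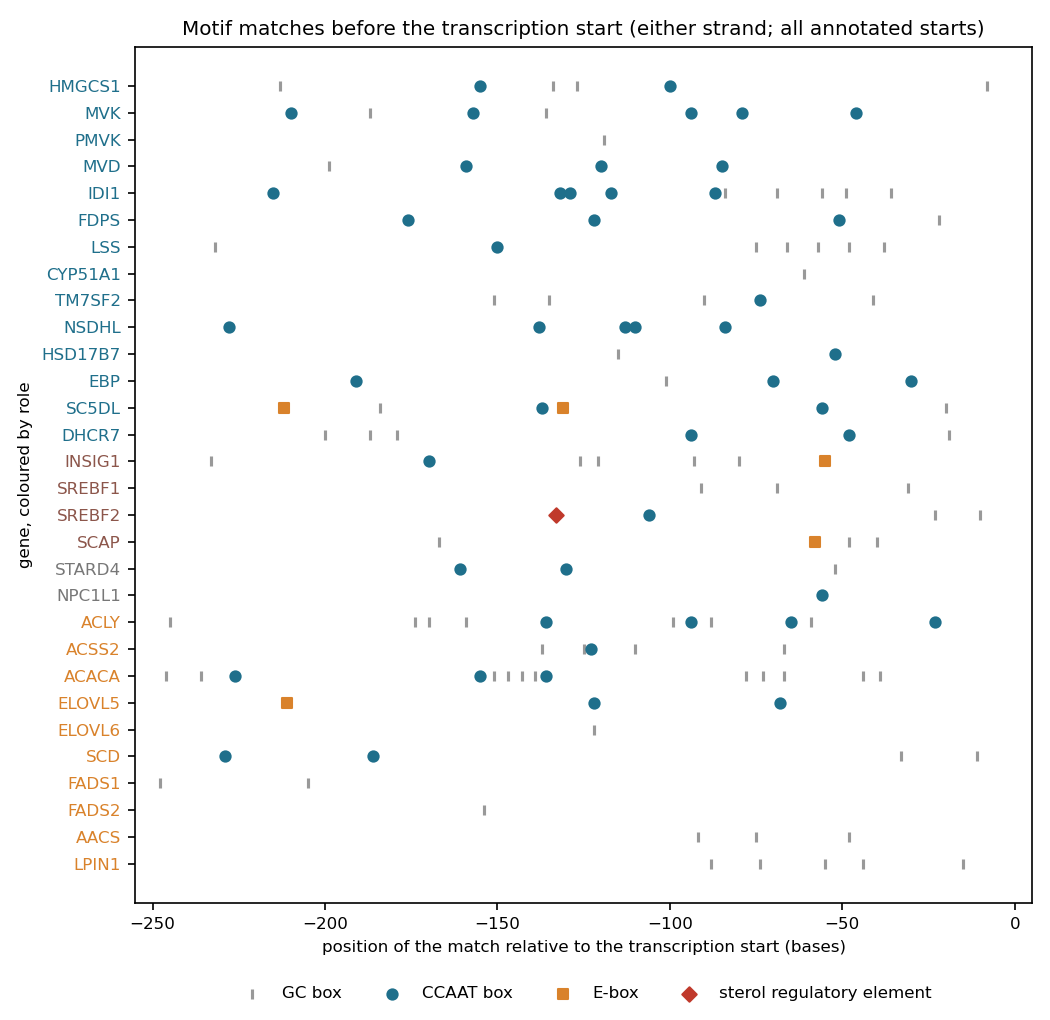
Position of each motif match before the transcription start, in bases relative to the start, for the 30 members with at least 1 match, over all annotated starts. Circles are CCAAT boxes, bars are GC boxes, squares are E-boxes and the diamond is the sterol regulatory element of SREBF2. CCAAT boxes occur in 21 of the 31 members searched.

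The genes of both routes were expressed in both lines. All 35 members had at least 5 RPKM in both Huh1 libraries, 34 did in Huh7 with NCsiRNA and 33 in Huh7 with CDCA8siRNA. The median member was at 27.4 and 28.99 RPKM in the Huh1 libraries and at 39.6 and 36.9 RPKM in the Huh7 libraries. SCD, the desaturase that makes oleate from stearate, was the highest member in every library, at 323 and 372 RPKM in Huh1 and at 411 and 311 RPKM in Huh7. Its value in Huh7 with CDCA8siRNA was the lowest of the 4 and that in Huh7 with NCsiRNA was the highest. The lowest member was TM7SF2 in Huh1, at 5.37 and 5.07 RPKM, and NPC1L1 in Huh7, at 3.43 and 2.67 RPKM. Between 136 and 26871 reads stood behind a member's value, as estimated from the RPKM and the transcript length.

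**Figure D2:**
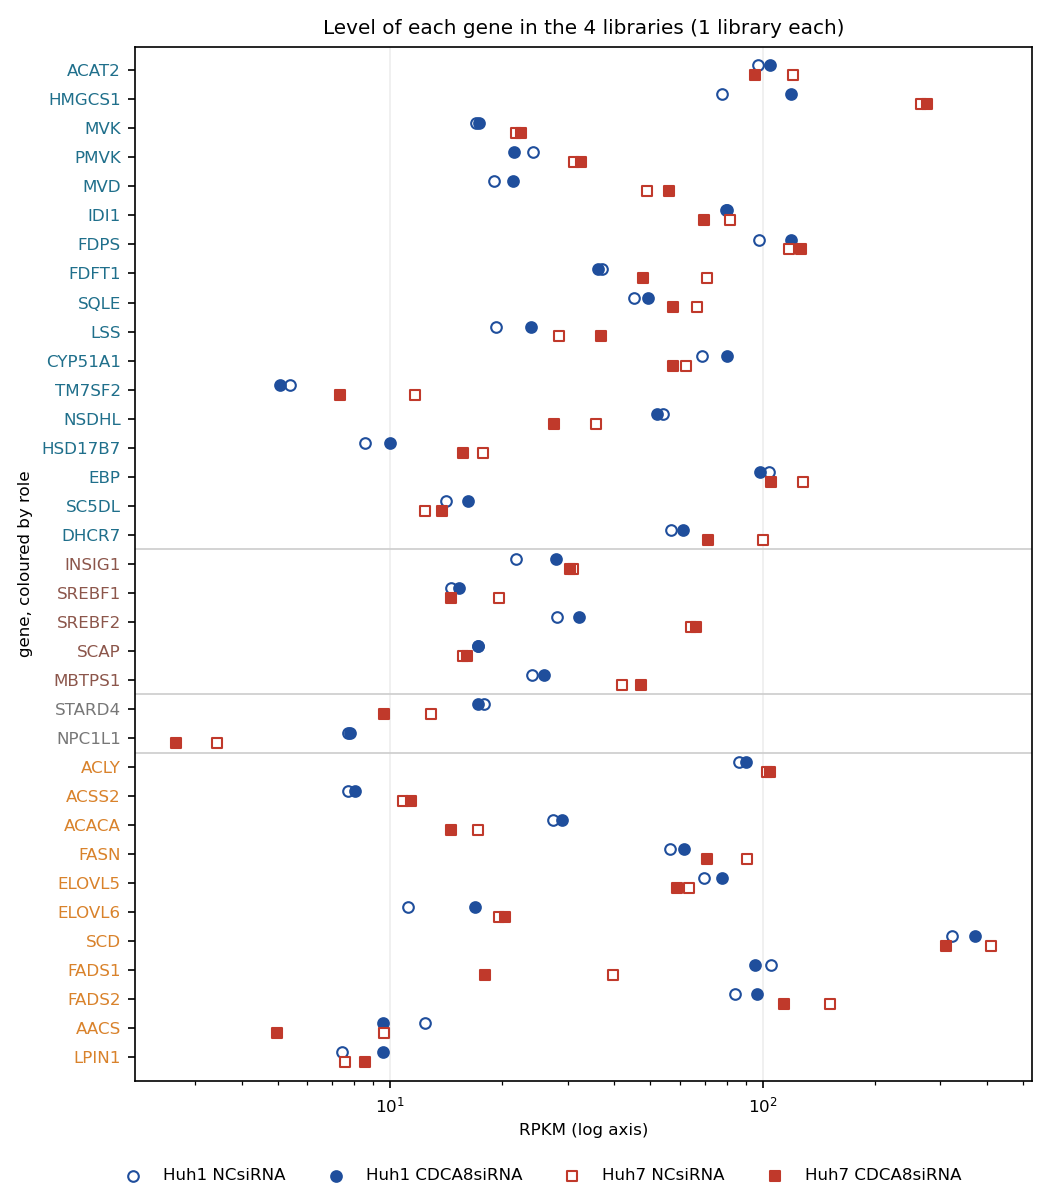
RPKM of the 35 members (log axis) in the 4 libraries, 1 library each, grouped by role. Circles are Huh1 and squares Huh7, open symbols NCsiRNA and filled symbols CDCA8siRNA. SCD was the highest member in every library, and FADS1 lay at 17.9 RPKM in Huh7 with CDCA8siRNA against 95.7 to 105 RPKM in the Huh1 libraries.

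To ask how CDCA8siRNA changed these genes, the libraries of each line were compared as differences of log2(RPKM + 1). Most members had higher values with CDCA8siRNA in Huh1, and most had lower values in Huh7, by small amounts. Both held together in 13 of the 35 members (37.1%), against 15.8% of genes. In Huh1, 25 of the 35 members were higher and 10 were lower, with a median difference of 0.10, against 55.1% higher and a median of 0.02 over 10940 genes with at least 1 RPKM in either library. In Huh7, 14 were higher and 21 were lower, with a median difference of -0.17, against 45.5% lower and a median of 0.03 over 11565 genes. The summed level of the 17 cholesterol synthesis enzymes was 826 and 915 RPKM in Huh1, where CDCA8siRNA gave 111% of the control, and 1223 and 1120 RPKM in Huh7, where it gave 91.6%. That of the 11 fatty acid enzymes was 791 and 867 RPKM in Huh1 (110% of the control) and 924 and 737 RPKM in Huh7 (79.8% of the control).

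Few members passed a fold threshold. At 2-fold, 0 members were higher or lower in Huh1, where 0.320% of genes were higher and 0.174% lower. In Huh7, 0 members were 2-fold higher (0.873% of genes) and 1, FADS1, was 2-fold lower (0.700% of genes). At 1.5-fold, 1 member, HMGCS1, was higher in Huh1 (2.48% of genes) and 0 were lower (1.27% of genes). ELOVL6 had an RPKM ratio of 1.52 in Huh1 and missed 1.5-fold on the log2(RPKM + 1) scale, which the added 1 makes narrower. In Huh7, 0 were 1.5-fold higher (5.30% of genes) and 3, FADS1, AACS and TM7SF2, were lower (3.42% of genes). With 1 library per condition there is no test within a line. The standard deviation that sampling of reads alone gives such a difference was 0.013 to 0.152 for the members and holds no variation between cultures. By that measure, 18 members were higher (26.1% of genes) and 3 lower (18.3% of genes) in Huh1 by over 1.96 sampling SD. In Huh7, 6 were higher (30.5% of genes) and 19 lower (23.8% of genes). The members had more reads than most genes, with a median of 1400 in Huh1 with NCsiRNA against 550 over the fitted genes, and more reads give a smaller sampling SD.

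**Figure D3:**
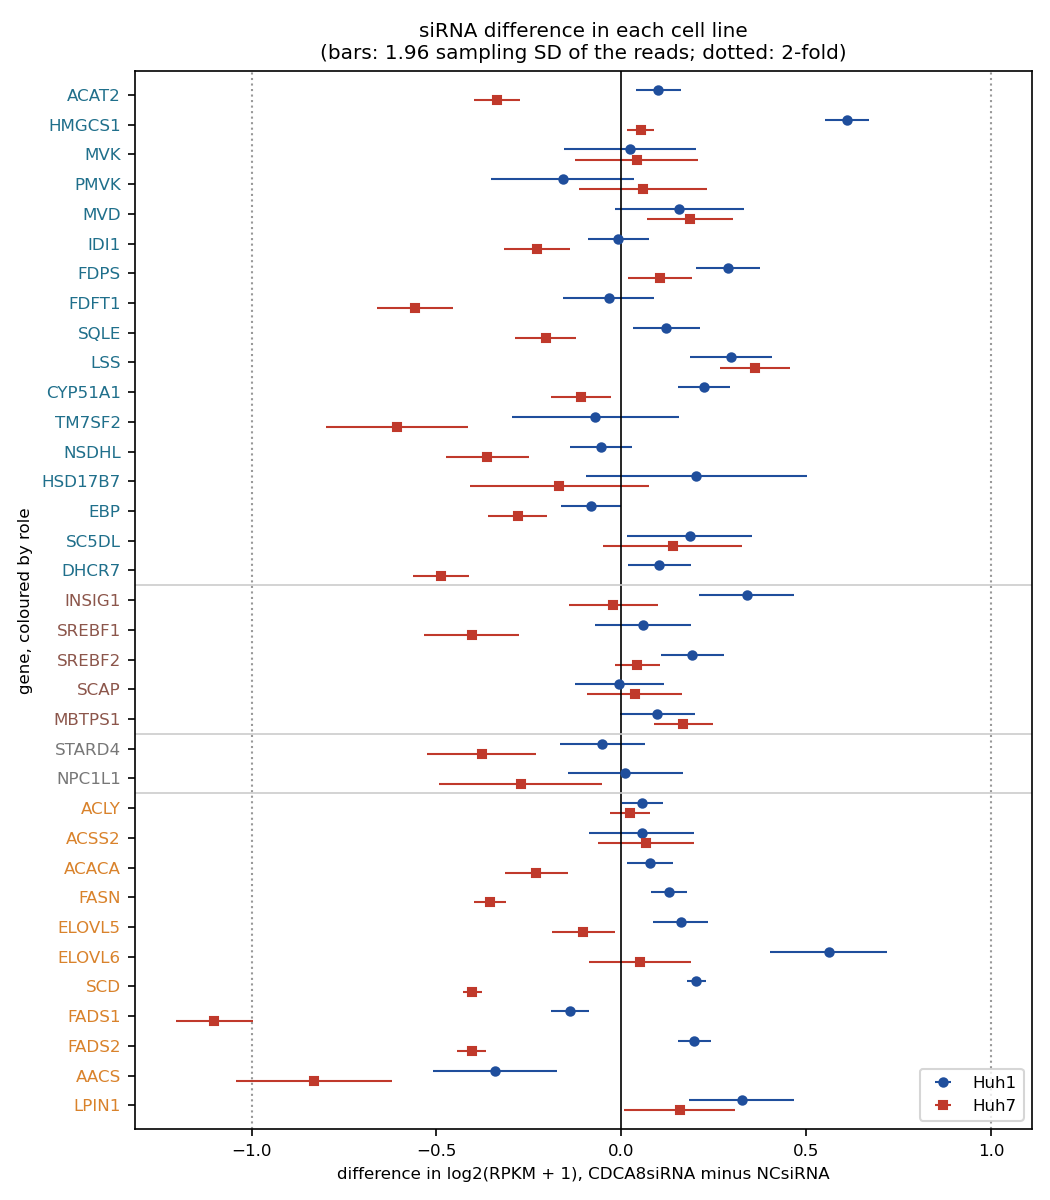
Difference of log2(RPKM + 1) between CDCA8siRNA and NCsiRNA for each member in Huh1 (circles) and Huh7 (squares), with bars of 1.96 sampling SD of the reads on each side, which leave out variation between cultures. Dotted lines mark 2-fold. FADS1 in Huh7, at -1.10, is the only point past 2-fold.

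The siRNA effect over both lines was tested with limma, in a fit of all 4 libraries that held a term for the cell line and left 1 residual degree of freedom, over 10357 genes with at least 1 RPKM in each line. The spread behind each p-value joins that 1 residual degree of freedom of the gene with a trend over all fitted genes (prior degrees of freedom 8.289). Most of it thus comes from the other genes. The p-values ask whether both lines differed alike, not whether repeat transfections would. All 35 members entered the fit. After Benjamini-Hochberg adjustment over all genes, 0 members were called higher, against 6.03% of genes, and 1 member, AACS, was called lower, against 4.21% of genes. At an unadjusted p under 0.05 there were 8 members of 35, and 2694 genes of 10357. AACS is therefore the only member described below as having fallen.

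AACS encodes acetoacetyl-CoA synthetase, which returns the ketone body acetoacetate to the cytosolic pool used for lipid synthesis. It was at 12.4 RPKM with NCsiRNA and 9.59 RPKM with CDCA8siRNA in Huh1, and at 9.60 and 4.96 RPKM in Huh7. Its level with CDCA8siRNA was 77.2% of the control in Huh1 and 51.7% in Huh7, lower in both lines. AACS fell by 0.59 on the log2(RPKM + 1) scale over both lines (SE 0.135, limma adjusted p = 0.0277). The call was lost without a filter on low values (adjusted p = 0.461) and without the cell line term, and over all 7 alternatives the adjusted p ran from 0.00059 to 1. Without that term the difference between the lines counts as spread, and 0 members were called. For the siRNA effect, the upper end of the range was the same for every member, here and below, so it does not tell the genes apart.

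Cholesterol synthesis begins with ACAT2, the thiolase that joins acetyl-CoA units, and HMGCS1, the synthase that makes HMG-CoA. HMGCS1 was at 77.8 RPKM with NCsiRNA and 119 RPKM with CDCA8siRNA in Huh1, and at 267 and 276 RPKM in Huh7. The Huh1 value with CDCA8siRNA was 153% of its control, and both Huh7 values lay above both Huh1 values. The difference of log2(RPKM + 1) was 0.61 in Huh1 (sampling SD 0.031) and 0.05 in Huh7 (sampling SD 0.019), and over both lines the effect was 0.33 (SE 0.119, limma adjusted p = 0.116). Under quantile normalization HMGCS1 passed the test (adjusted p = 0.0104, the lowest of 7 alternatives, the highest being 1). ACAT2 was at 97.5 and 105 RPKM in Huh1 and at 120 and 95.2 RPKM in Huh7, higher with CDCA8siRNA in the first line and lower in the second. In the GENCODE annotation, 34.8% of the exon bases of ACAT2 also lie in exons of SOD2 and 12.5% in exons of TCP1, both on the opposite strand, and with a kit that does not keep the strand such reads cannot be told apart.

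The mevalonate part of the route makes the isoprenoid building blocks. MVK, the mevalonate kinase, was nearly equal between siRNAs, at 17.0 and 17.3 RPKM in Huh1 and at 21.8 and 22.5 RPKM in Huh7. PMVK, the next kinase, was at 24.2 and 21.5 RPKM in Huh1 and at 31.2 and 32.5 RPKM in Huh7. Neither kinase differed between siRNAs by over 1.96 sampling SD in either line. MVD, the decarboxylase that yields isopentenyl diphosphate, was at 19.0 and 21.3 RPKM in Huh1 and at 49.1 and 56.0 RPKM in Huh7. IDI1, the isomerase that supplies the partner of isopentenyl diphosphate, was at 80.1 and 79.7 RPKM in Huh1 and at 81.8 and 69.7 RPKM in Huh7. FDPS, which makes farnesyl diphosphate, was at 97.7 and 120 RPKM in Huh1 and at 118 and 127 RPKM in Huh7. FDPS was higher with CDCA8siRNA by over 1.96 sampling SD in both lines, with an effect over both of 0.20 (SE 0.085, limma adjusted p = 0.181).

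FDFT1, SQLE and LSS commit farnesyl diphosphate to sterols by making squalene, its epoxide and lanosterol. FDFT1, the squalene synthase, was at 37.0 and 36.1 RPKM in Huh1 and at 70.8 and 47.8 RPKM in Huh7. The level with CDCA8siRNA was thus 97.6% of the control in Huh1 and 67.5% in Huh7. SQLE, the squalene epoxidase, was at 45.2 and 49.3 RPKM in Huh1 and at 66.5 and 57.6 RPKM in Huh7. LSS, the lanosterol synthase, was at 19.3 and 23.9 RPKM in Huh1 and at 28.5 and 36.9 RPKM in Huh7. LSS had the highest Huh7 difference of all members, 0.36 (sampling SD 0.048), and a similar one in Huh1, 0.30 (sampling SD 0.056). Over both lines its effect was 0.33 (SE 0.095, limma adjusted p = 0.0593), on the other side of the threshold with a minimum of 5 RPKM (adjusted p = 0.0492) and under quantile normalization (adjusted p = 0.0372), with a range up to 1 over the 7 alternatives.

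The remaining enzymes turn lanosterol into cholesterol. CYP51A1, the lanosterol demethylase, was at 68.8 and 80.4 RPKM in Huh1 and at 62.1 and 57.5 RPKM in Huh7. TM7SF2, a sterol reductase, was at 5.37 and 5.07 RPKM in Huh1 and at 11.7 and 7.32 RPKM in Huh7. Its difference in Huh7 was -0.61 (sampling SD 0.098), the lowest of the cholesterol enzymes, and -0.07 in Huh1 (sampling SD 0.115). NSDHL, which acts with HSD17B7 in removing methyl groups from the sterol ring, was at 54.0 and 52.0 RPKM in Huh1 and at 35.8 and 27.6 RPKM in Huh7. HSD17B7 was at 8.54 and 9.98 RPKM in Huh1 and at 17.8 and 15.7 RPKM in Huh7. Its opposite signs in the lines were each within 1.96 sampling SD. EBP, the isomerase of the ring double bond, was at 104 and 98.3 RPKM in Huh1 and at 128 and 105 RPKM in Huh7, lower in both lines by over 1.96 sampling SD. SC5DL, the sterol desaturase, was at 14.1 and 16.2 RPKM in Huh1 and at 12.4 and 13.8 RPKM in Huh7, with higher values for CDCA8siRNA in each line. DHCR7, the reductase that closes the route to cholesterol, was at 56.8 and 61.1 RPKM in Huh1 and at 100.3 and 71.3 RPKM in Huh7. Its Huh7 difference was -0.49 (sampling SD 0.039) beside 0.10 in Huh1 (sampling SD 0.044). MSMO1, the methylsterol oxidase named SC4MOL in the set, was at 63.9 and 64.5 RPKM in Huh1 and at 93.3 and 77.9 RPKM in Huh7. Of the 17 cholesterol enzymes, 11 were higher and 6 lower in Huh1, 7 were higher and 10 lower in Huh7, and 0 passed the limma test after adjustment, with 5 at an unadjusted p under 0.05.

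Differences in the sensing machinery were small, and 0 of its 5 members passed the limma test or had an unadjusted p under 0.05. SREBF2 was at 28.0 and 32.1 RPKM in Huh1 and at 64.2 and 66.2 RPKM in Huh7. SREBF1 was at 14.6 and 15.3 RPKM in Huh1 and at 19.6 and 14.6 RPKM in Huh7, so that its level with CDCA8siRNA in Huh7 was 74.3% of the control. INSIG1, itself a target gene of the pathway, was at 21.8 and 27.8 RPKM in Huh1 and at 30.9 and 30.4 RPKM in Huh7. The INSIG1 difference was 0.34 in Huh1 (sampling SD 0.066) and -0.02 in Huh7 (sampling SD 0.062). SCAP was at 17.3 and 17.2 RPKM in Huh1 and at 15.6 and 16.1 RPKM in Huh7, which is within 1.96 sampling SD in both lines. MBTPS1 was at 24.1 and 25.8 RPKM in Huh1 and at 41.9 and 47.2 RPKM in Huh7.

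Both genes of sterol transport had lower values with CDCA8siRNA in Huh7. STARD4, which carries cholesterol between membranes, was at 17.8 and 17.2 RPKM in Huh1 and at 12.8 and 9.65 RPKM in Huh7. NPC1L1, the transporter that takes up cholesterol at the apical membrane, was at 7.71 and 7.78 RPKM in Huh1 and at 3.43 and 2.67 RPKM in Huh7. The adjusted p of limma over both lines was 0.279 for STARD4 and 0.567 for NPC1L1.

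Fatty acid synthesis starts from the acetyl-CoA made by ACLY from citrate and by ACSS2 from acetate. ACLY was at 86.6 and 90.0 RPKM in Huh1 and at 103 and 104 RPKM in Huh7, and ACSS2 at 7.70 and 8.04 RPKM in Huh1 and at 10.8 and 11.4 RPKM in Huh7. ACACA, the carboxylase that makes malonyl-CoA, was at 27.4 and 28.99 RPKM in Huh1 and at 17.2 and 14.6 RPKM in Huh7. FASN, the fatty acid synthase, was at 56.3 and 61.6 RPKM in Huh1 and at 90.8 and 70.8 RPKM in Huh7. FASN and ACACA were thus both higher with CDCA8siRNA in Huh1 and lower in Huh7, in each case by over 1.96 sampling SD. Of the chain elongases, ELOVL6, which extends palmitate, was at 11.1 and 16.9 RPKM in Huh1 and at 19.6 and 20.3 RPKM in Huh7. ELOVL5, which extends polyunsaturated chains, was at 69.5 and 77.8 RPKM in Huh1 and at 63.5 and 59.0 RPKM in Huh7. The ELOVL6 difference was 0.56 in Huh1 (sampling SD 0.081), second to HMGCS1, and 0.05 in Huh7 (sampling SD 0.071). LPIN1, the phosphatidate phosphatase of triglyceride synthesis, was at 7.43 and 9.56 RPKM in Huh1 and at 7.58 and 8.58 RPKM in Huh7.

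FADS1 and FADS2 encode the desaturases that make arachidonate and other polyunsaturated fatty acids, and they lie side by side on opposite strands of chromosome 11. FADS1 was at 105 and 95.7 RPKM in Huh1 and at 39.6 and 17.9 RPKM in Huh7. The level with CDCA8siRNA was 90.8% of the control in Huh1 and 45.3% in Huh7, a difference of -0.14 (sampling SD 0.026) and of -1.10 (sampling SD 0.053). The effect over both lines, -0.62 (SE 0.180), missed the threshold (limma adjusted p = 0.0611), which it passed with a minimum of 5 RPKM (adjusted p = 0.0441) and under quantile normalization (adjusted p = 0.000589), again with a range up to 1. FADS2 was at 84.1 and 96.5 RPKM in Huh1 and at 152 and 114 RPKM in Huh7. In Huh1 the neighbours had opposite signs, FADS2 being higher and FADS1 lower with CDCA8siRNA, and in Huh7 both were lower. In the GENCODE annotation 142 exon bases are common to the pair, which is 1.8% of the exon bases of FADS1 and 2.9% of those of FADS2. SCD differed by 0.20 in Huh1 (sampling SD 0.013) and by -0.40 in Huh7 (sampling SD 0.013), much like FADS2 at 0.20 and -0.40.

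The lines were next compared in their response. The siRNA difference was lower in Huh7 than in Huh1 for 28 of the 35 members (80.0%), against 51.0% of the 10357 genes, and the median of the difference between lines was -0.31 on the log2(RPKM + 1) scale, against -0.01 over all genes. By role, it was lower in Huh7 for 13 of 17 cholesterol enzymes, for 3 of 5 sensing genes, for both transport genes and for 10 of 11 fatty acid enzymes. Of the 21 fitted genes of fatty acid oxidation listed below, it was lower in 15 (71.4%), with a median of -0.09. Of 31 other lipid genes it was lower in 18 (58.1%), with a median of -0.06. In 13 members the value was higher with CDCA8siRNA in Huh1 and lower in Huh7. That is 37.1% of members, against 15.8% of genes, 23.8% of the oxidation genes and 12.9% of the other lipid genes. In 9 of the 13 members, ACAT2, SQLE, CYP51A1, DHCR7, ACACA, FASN, ELOVL5, SCD and FADS2, both values were past 1.96 sampling SD. That is 25.7% of the 35 members, against 1.79% of genes, and the higher read numbers of the members make that cut easier to pass. By that measure 0 members showed the reverse pattern, which 1.47% of genes did. By the same measure HMGCS1, FDPS, LSS and LPIN1 were higher in both lines (16.5% of genes), and EBP, FADS1 and AACS were lower in both (11.3% of genes). With 1 library per condition no test of the difference between lines can be made, so a difference in response cannot be told apart from variation between cultures. Differences were also wider in Huh7 over all genes, with a standard deviation across genes of 0.347 against 0.261 in Huh1.

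**Figure D4:**
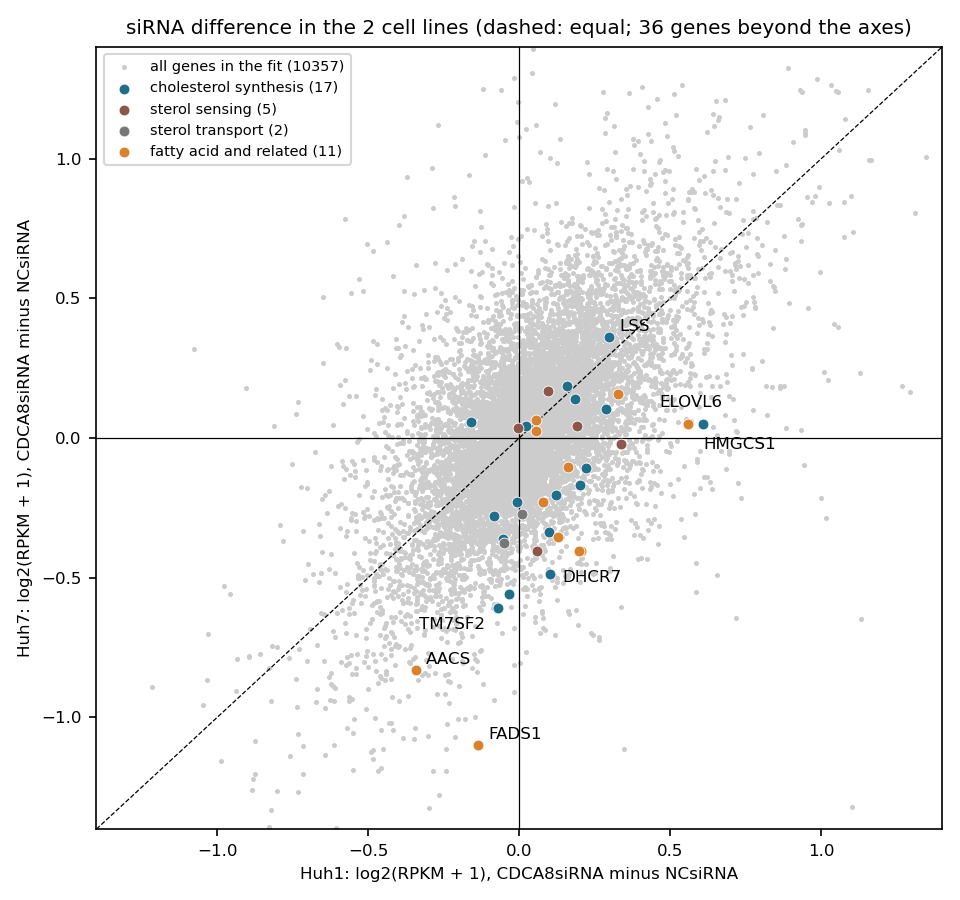
Difference of log2(RPKM + 1) between CDCA8siRNA and NCsiRNA in Huh1 (horizontal) and Huh7 (vertical), for the 10357 genes of the fit in grey and the members coloured by role. Most members lie below the dashed line of equal values (28 of 35), and 36 genes lie beyond the axes.

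More members differed between the lines than between the siRNAs, and the same held over all genes. Over both siRNAs, 18 members (51.4%) were called higher in Huh7, against 39.1% of genes (limma, adjusted p under 0.05). Called lower were 8 members (22.9%), against 28.7% of genes. The remaining 9 were not called. Without a filter on low values, 6 members were called higher and 1 lower, and HMGCS1 (adjusted p = 0.0588) and FADS1 (adjusted p = 0.0833) were then not among them, whereas MVD (adjusted p = 0.0302) and SREBF2 (adjusted p = 0.0314) were. That fit held 18398 rows and had prior degrees of freedom of 0.9168, against 8.289 in the reported fit. The share of all genes called in it is not given here, so the loss cannot be read as particular to the members. The median difference of Huh7 minus Huh1 was 0.23 over the members and 0.10 over all genes on the log2(RPKM + 1) scale. Among cholesterol enzymes, 10 were called higher and 2 lower in Huh7. HMGCS1 was higher in Huh7 by 1.49 (SE 0.119, limma adjusted p = 4.14e-06) and MVD by 1.34 (SE 0.092, limma adjusted p = 1.59e-06). With NCsiRNA alone, the RPKM ratio of Huh7 to Huh1 was 3.43 for HMGCS1, 2.58 for MVD, 2.18 for TM7SF2 and 2.08 for HSD17B7. NSDHL differed the other way, at -0.74 (SE 0.103, limma adjusted p = 0.000165), as did CYP51A1, at -0.31 (SE 0.101, limma adjusted p = 0.0208).

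Of the sensing genes, SREBF2 was higher in Huh7 by 1.10 (SE 0.092, limma adjusted p = 5.51e-06) and MBTPS1 by 0.81 (SE 0.093, limma adjusted p = 4.3e-05). INSIG1 was also called higher, by 0.30 (SE 0.111, limma adjusted p = 0.0343), a call that was lost under 5 of 7 alternatives (adjusted p from 0.0318 to 0.243). SREBF1 was not called, at 0.17 (SE 0.126, limma adjusted p = 0.258), and neither was SCAP. Both transport genes were called lower in Huh7, NPC1L1 at -1.12 (SE 0.128) and STARD4 at -0.61 (SE 0.115). The fatty acid enzymes were divided, with 5 called higher and 4 called lower. FADS1 was lower in Huh7 by the widest margin of all members, at -1.87 (SE 0.180, limma adjusted p = 1.38e-05), while its neighbour FADS2 was higher, at 0.54 (SE 0.127, limma adjusted p = 0.00396). ACACA, at -0.79 (SE 0.109), and FASN, at 0.44 (SE 0.116), were likewise called in opposite directions. SCD was not called, at 0.04 (SE 0.122, limma adjusted p = 0.765), and took a negative sign after upper-quartile scaling. MSMO1 was called higher in Huh7, at 0.40 (SE 0.095, limma adjusted p = 0.00398). The lines are 1 culture lineage each, so these are differences between Huh1 and Huh7 only.

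**Figure D5:**
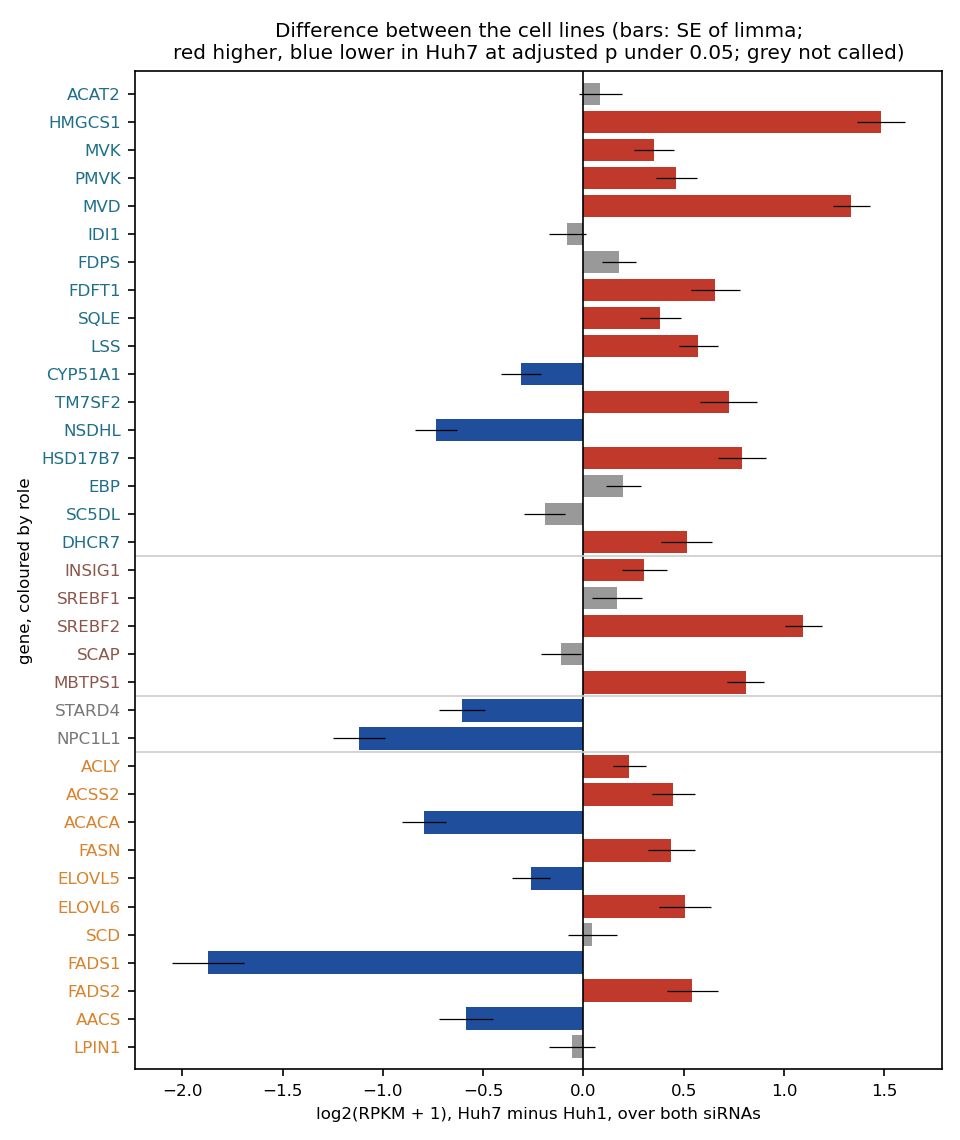
Difference of log2(RPKM + 1), Huh7 minus Huh1 over both siRNAs, for each member, with the SE of limma. Red bars (18) were called higher and blue bars (8) lower in Huh7 at an adjusted p under 0.05, and grey bars (9) were not called. FADS1 (-1.87) and HMGCS1 (1.49) lie at the ends.

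Other genes of lipid synthesis and sterol handling were listed separately. Of 35 such genes, 31 entered the fit, and of these 2 were called higher with CDCA8siRNA, where 6.03% of all genes were, and 2 lower, where 4.21% were, while 0 were called at 2-fold in either line. ME1, the cytosolic malic enzyme that supplies NADPH, was at 101 and 144 RPKM in Huh1 and at 22.4 and 41.4 RPKM in Huh7 (effect 0.68, SE 0.103, limma adjusted p = 0.00577). ELOVL7, an elongase of saturated chains, was at 7.46 and 11.2 RPKM in Huh1 and at 8.04 and 10.6 RPKM in Huh7 (effect 0.44, SE 0.111, limma adjusted p = 0.0379). Both genes had higher values with CDCA8siRNA in each line. ACSL4, which activates arachidonate to its CoA ester, was at 144 and 120 RPKM in Huh1 and at 97.4 and 74.5 RPKM in Huh7 (effect -0.32, SE 0.083, limma adjusted p = 0.0397). TMEM97, a sterol-binding membrane protein, was at 54.3 and 46.2 RPKM in Huh1 and at 49.6 and 32.8 RPKM in Huh7 (effect -0.40, SE 0.106, limma adjusted p = 0.0438).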

How the data were processed

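Libraries of Huh1 and Huh7 cells with NCsiRNA or CDCA8siRNA (TruSeq RNA kit, 1 library each) were taken as deposited, with groups from the labels. The submitters' processing notes name CASAVA 1.8.2, TopHat2 2.0.9 and hg19. The counting tool is not given in the sources used here. Each table holds 18398 RefSeq transcripts with 1 value each and names no unit. The deposited values were taken here as RPKM, reads per transcript divided by its length and by the depth of the library. This reading rests on low values, which multiplied by length often fell on whole multiples of what 1 read is worth. Of genes near 1 to 5 reads, 39.3% to 43.5% per library lay within 0.05 reads of a whole number, with lengths from GENCODE 29. From the deposited values log2(RPKM + 1) was computed, which makes differences of low genes smaller. Within a line, genes that reached 1 RPKM in either library were compared and called at 2-fold, with no test. The fit used limma 3.58.1 in R 4.3.3 (lmFit, eBayes with a trend, prior degrees of freedom 8.289) on genes that reached 1 RPKM in each line, with Benjamini-Hochberg adjustment and a threshold of 0.05. Sampling SDs came from reads estimated with transcript lengths (GENCODE 29 where no length gave whole reads) and are approximate. For the shares and the median reads over all genes, GENCODE 29 lengths alone were used, so those rest on slightly different read estimates. Promoters were RefSeq sequences on GRCh38.p14, matched by current symbol (SC5DL as SC5D), and no coordinates were converted between builds. Of the steps, only the limma fit was run on simulated data, in which the changed genes differed by at least 2-fold alike in both lines. Most members differed by less. Python 3.11.15, numpy 2.4.6, pandas 2.3.3 and matplotlib 3.10.9 were used for the rest.

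Every member in the tables is named, with CDCA8 as the check of the labels, and, of the other lipid genes, those called at 2-fold or by the adjusted p. MSMO1 and the marker genes were named in addition. The members, lists and motifs were chosen with earlier results of these data known. The alternatives were a pseudocount of 0.1 RPKM, no filter, a minimum of 5 RPKM, upper-quartile scaling, quantile normalization, 1.5-fold, and limma without the trend or without the covariate. The marker PECAM1 was not analysed here.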

Additional observations from a re-analysis of the deposited data

Results flagged for a closer look

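In 16 genes the value was higher with CDCA8siRNA in one cell line and lower in the other. Such opposite signs were found in 15 of the 35 members and in 3166 of the 10357 genes of the fit. Each value below is the Huh7 difference minus the Huh1 difference on the log2(RPKM + 1) scale. With 1 library per condition this difference was not tested, and 9 of the 15 members among these genes had both values past 1.96 sampling SD of the reads. Among the cholesterol synthesis enzymes it was -0.44 for ACAT2, -0.33 for SQLE, -0.33 for CYP51A1, -0.37 for HSD17B7, -0.59 for DHCR7 and 0.22 for PMVK. MSMO1 stood at -0.27. In the sensing machinery it was -0.36 for INSIG1, -0.46 for SREBF1 and 0.0408 for SCAP. NPC1L1 stood at -0.28. Among the fatty acid enzymes it was -0.31 for ACACA, -0.48 for FASN, -0.26 for ELOVL5, -0.61 for SCD and -0.60 for FADS2.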

How the results depend on the processing

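Over the siRNA effect, the number of members called lower, 1 as reported, was 0 without a filter on low values, 2 with a minimum of 5 RPKM, 4 under quantile normalization and 0 without the cell line covariate, and the number called higher, 0 as reported, was 1 with a minimum of 5 RPKM and 2 under quantile normalization. Without the filter, 6 members were called higher and 1 lower in Huh7 than in Huh1, and without the siRNA covariate 5 were called lower. The prior degrees of freedom, 8.289 as reported, were 0.9168 without the filter, 9.032 with a minimum of 5 RPKM and 32.4 under quantile normalization. Shares of all genes called under the alternatives are not given here, so these counts cannot be read as particular to the members. At 1.5-fold in place of 2-fold, 1 member was higher in Huh1 and 3 were lower in Huh7. Of 251 single values of the siRNA effect, 240 kept their direction and side of the threshold, 2 lost and 7 gained the call, and 2 changed sign under quantile normalization, HSD17B7 (-0.014) and SCAP (-0.0027). Of 251 values between the lines, 214 kept both, 34 lost and 2 gained the call, and SCD changed sign after upper-quartile scaling (-0.0104). Of 359 differences within a line, 358 moved by less than 1.96 sampling SD, and SCD in Huh7 moved to -0.31 under quantile normalization. The causes were not tested. Quantile normalization moved the median of all genes between the lines by -0.125, from 0.0974 to -0.0274, and that of the members from 0.228 to 0.216, so that the members' median lay further above that of all genes. The other medians of all genes moved by less than 0.1. Leaving out a library was not possible, because each condition has 1 library and no residual degree of freedom would remain. The reported fit compares the siRNAs within each line through its cell line term. No further pairing was possible, because the libraries carry no replicate numbers. Depth left a sampling SD of up to 0.152 in Huh1 and 0.124 in Huh7, both for HSD17B7.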

Other observations

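The opposite route, the oxidation of fatty acids and the making of ketone bodies, was measured in 22 listed genes, of which 21 entered the fit. With CDCA8siRNA 0 of them were called by limma in either direction, where 6.03% of all genes were called higher and 4.21% lower. At an unadjusted p under 0.05 there were 3 of the 21, and 2694 genes of 10357. Between the lines 12 were called lower in Huh7, where 28.7% of all genes were, and 5 higher, where 39.1% were. CPT1A, which admits fatty acids to mitochondria, was at 44.3 and 42.1 RPKM in Huh1 and at 18.8 and 12.1 RPKM in Huh7 (-1.46 on the log2(RPKM + 1) scale, SE 0.128, limma adjusted p = 7.16e-06). PPARA, the transcription factor of this route, was at 9.35 and 10.2 RPKM in Huh1 and at 2.96 and 2.97 RPKM in Huh7. CPT2, the inner-membrane transferase, was among those higher in Huh7, at 5.43 and 6.53 RPKM in Huh1 and at 15.3 and 16.4 RPKM in Huh7. CPT1A, PPARA and CPT2 were named after their values were seen.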
